A study of Mus musculus with 12 samples.

Results

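The nuclear lamina genes are 8 of the 23102 genes measured on the arrays, taken by symbol: the lamin genes Lmna, Lmnb1 and Lmnb2, and Lbr, Tmpo, Emd, Banf1 and Lemd3, which encode proteins that tie the lamina to the inner nuclear membrane or to chromatin. The rule used their names and no measured value, but the genes were chosen with earlier results of these data known. All 8 were found, each through the probesets that the platform table gives to 1 symbol. Total RNA was measured in 12 oral tumours, 1 array each, that arose in C57BL/6 × FVB F1 mice. Every animal, in both groups, had been given tamoxifen by intraperitoneal injection. The 6 KR tumours expressed RAS, and the 6 KHR tumours expressed RAS and a viral transgene, iHPV, described elsewhere in the labels as HPV E6. The sources used here do not give the promoter behind the transgenes, the sex or age of the mice, or whether each tumour came from its own animal. The p-values therefore reflect the spread among these tumours, which may share animals. The comparison asks what the papillomavirus gene adds to a RAS-driven oral tumour.

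The lamina is a meshwork of intermediate filaments under the inner nuclear membrane. B-type lamins stay farnesylated and bound to the membrane, and lamin B1 is known to be lost from senescent cells. Lamins A and C, both spliced from Lmna, are known to be scarce in stem and blood cells and abundant in stiff and differentiated tissue. In mitosis the lamina is taken apart, and LEM-domain proteins and the BAF protein of Banf1 rebuild the envelope around the chromosomes.

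None of the 8 lamina genes passed the threshold between KHR and KR tumours. The call was an adjusted p under 0.05 in limma (Benjamini-Hochberg, all 23102 genes), which 3.74% of all genes passed, 2.71% as higher and 1.03% as lower. At an unadjusted p under 0.05 the count was 4 of 8, against 15.9% of all genes. These 4 were Tmpo, Lmnb1 and Lemd3, with higher estimates in KHR tumours, and Lmna, with a lower one. An exact permutation test over the 12 arrays (two-sided, unadjusted) gave a p under 0.05 for 3 of the 8, and its lowest p was 0.0108. The KR and KHR arrays overlapped for all 8 genes, while they did not overlap for 2.67% of all genes. The median change of the 8 genes was 0.30 on the log2 scale, beside 0.0045 for all genes tested. It was 0.0536 for the 11551 genes above the median level, which include 7 of the 8. When these brighter genes were tested alone, 1007 of them passed and none of the 7 did.

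**Figure D1:**
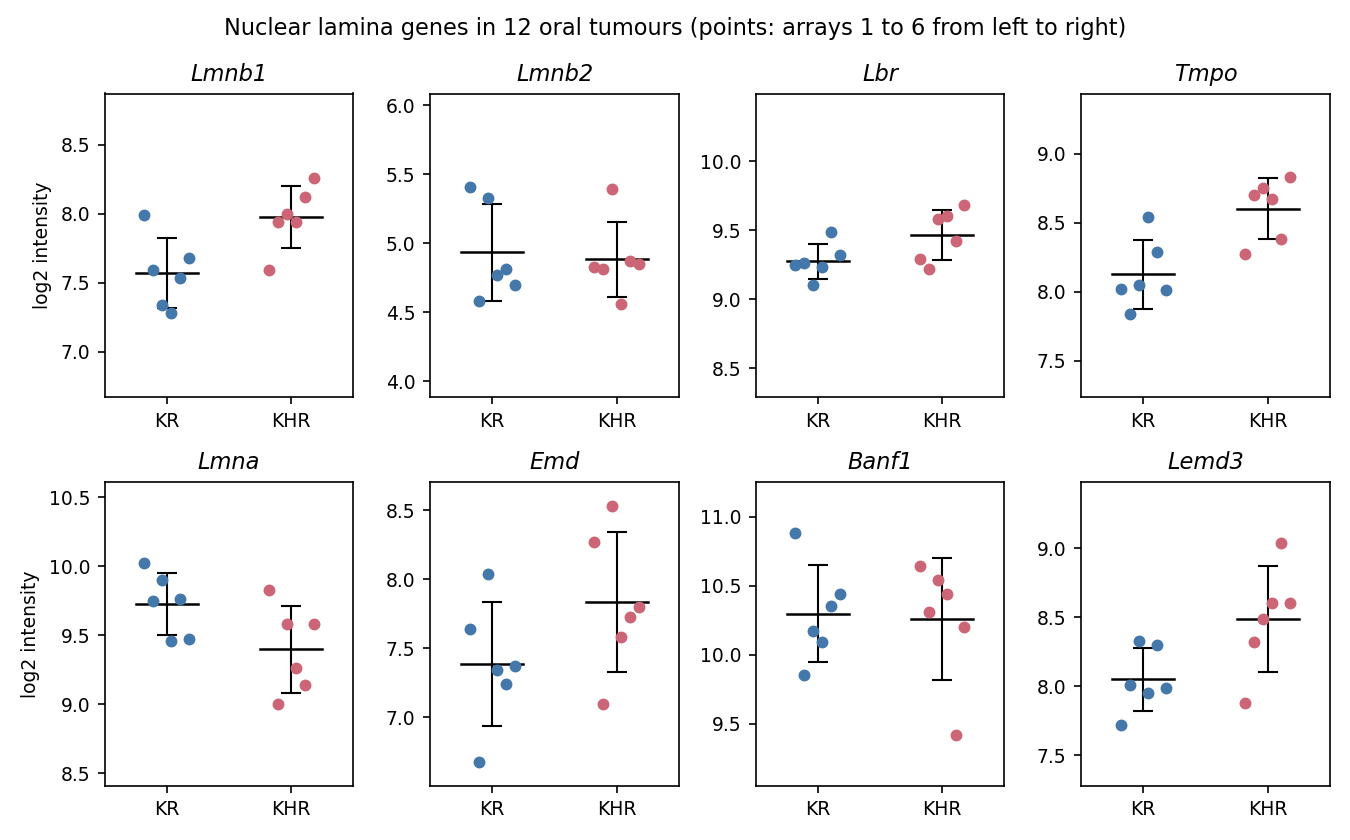
Log2 intensity of each of the 8 lamina genes (vertical axes, each spanning the same range of log2 units) in the 6 KR and 6 KHR tumours; points are arrays, the long line is the group mean and the bar is 1 SD on each side. The groups overlap in every panel, and KHR 1, the leftmost KHR point, sits among the KR points for Lmnb1, Tmpo, Lmna and Lemd3.

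The values of a gene are the median of the log2 intensities of its probesets on an array, so a change of 1 is a doubling of signal. Levels of different genes come from different probes and are not set against each other. Among the B-type lamins, Lmnb1 encodes lamin B1. Its KR values from tumour 1 to tumour 6 were 7.99, 7.59, 7.34, 7.28, 7.53 and 7.68, and its KHR values were 7.59, 7.94, 8.0, 7.94, 8.12 and 8.26. The highest KR tumour, KR 1, lay above 3 of the KHR tumours, and the lowest KHR tumour, KHR 1, lay at the middle of the KR range. The estimate was 0.41 ± 0.13 higher in KHR tumours (SE, n = 6 each; 95% interval 0.12 to 0.69), with an adjusted p of 0.125 in limma. Without KHR 1 it was 0.48 and passed (adjusted p = 0.0477), and leaving out each other array gave adjusted p-values up to 0.235. With the mean in place of the median over probesets it also passed, at 0.38 (adjusted p = 0.0352). Of the 13 probesets of Lmnb1, 12 were higher in KHR tumours, and the changes of all 13 spanned -0.03 to 0.84.

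Lmnb2 encodes lamin B2, and its value was dim. KR tumours averaged 4.93 ± 0.35 and KHR tumours 4.89 ± 0.27 (SD, n = 6 each), under the all-gene median level of 4.98. The 17 probesets split into 10 higher and 7 lower, and only 5 of the 17 lay above the median level of all probesets. Its change was -0.05 ± 0.17 (SE; 95% interval -0.40 to 0.31; adjusted p = 0.942 in limma), and the sign turned with the mean over probesets (0.04), with median polish (0.05) and on leaving out KR 1, KR 3 or KHR 4.

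Tmpo encodes the LAP2 proteins, of which the soluble form is known to hold lamin A and the Rb protein inside the nucleus. In KR tumours it read 8.02, 7.84, 8.05, 8.54, 8.29 and 8.01, and in KHR tumours 8.27, 8.70, 8.75, 8.67, 8.38 and 8.83. Of the KHR tumours 4 lay above every KR tumour, and KHR 1 and KHR 5 lay below KR 4. The difference of 0.47 ± 0.13 (SE, n = 6 each; 95% interval 0.19 to 0.76) had the smallest p of the 8 genes and missed the threshold (adjusted p = 0.0687 in limma). It passed without KR 4 (0.56, adjusted p = 0.0262) or without KHR 1 (0.54, adjusted p = 0.0338), and leaving out others gave up to 0.148. Of its 18 probesets 15 were higher in KHR tumours, and of the 16 above the median level of all probesets 15 were.

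Lbr encodes the lamin B receptor, a membrane protein that anchors B-type lamins and heterochromatin and also acts as a sterol reductase. The KR tumours read 9.25, 9.26, 9.10, 9.23, 9.49 and 9.32, and the KHR tumours 9.29, 9.22, 9.58, 9.60, 9.42 and 9.68. Of the KHR tumours 3 lay above every KR tumour and the other 3 lay among them. The median over probesets gave a difference of 0.19 ± 0.10 (SE, n = 6 each; 95% interval -0.03 to 0.41; adjusted p = 0.397 in limma). The mean over probesets gave 0.41, which passed (adjusted p = 0.0236), and median polish gave 0.35 (adjusted p = 0.0557). Of the 14 probesets 13 were higher in KHR tumours, and the median of their separate changes was 0.42, more than the change of the gene value. The gene value is a median of levels on each array, which need not move by the median of the changes. Neutrophils and other blood cells are known for abundant Lbr. The mean level of 10 neutrophil genes ranged from 5.66 to 6.36 in KR and from 6.24 to 6.57 in KHR tumours. Of these 10 genes 8 had estimates above 0 (median change 0.26) and 1 passed, beside 3.74% of all genes. It was the chemokine receptor Cxcr2, which rose by 0.83 ± 0.14 (SE; adjusted p = 0.00488 in limma). Its change was 0.55 with the mean over probesets and 0.48 with brighter probesets alone. For 6 of the 10, namely Camp, Elane, Ly6g, Mpo, Ngp and Retnlg, the mean over all arrays was under the all-gene median, and the part of neutrophils in the Lbr values was not tested.

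Promoter windows from RefSeq (GRCm38.p6), running from 250 bases before to 50 after a start, are shown for Tmpo, Lbr and Lmna, and for 1 window of Cbx3, a lamina partner gene that passed; they were picked after the matches were seen. Capitals mark any match, on either strand, to TTTGGCGC or TTTCGCGC (forms of the E2F site), to TTTGAA (the cell cycle homology element) or to CCAAT (the NF-Y box). Windows were found for 9 of 10 genes looked up, 15 in all, and each is read 5′ to 3′ on the strand of its gene. The gene without a window was Lmnb1, so nothing is said of its promoter.
Tmpo, chr10:91171570-91171869, minus strand: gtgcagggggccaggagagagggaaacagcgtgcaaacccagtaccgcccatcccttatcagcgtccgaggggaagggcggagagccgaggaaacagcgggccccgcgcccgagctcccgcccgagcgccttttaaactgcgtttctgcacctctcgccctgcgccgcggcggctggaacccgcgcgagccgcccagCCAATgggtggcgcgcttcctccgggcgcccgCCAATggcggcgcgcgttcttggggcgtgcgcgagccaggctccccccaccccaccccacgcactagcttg
Tmpo, chr10:91170501-91170800, minus strand: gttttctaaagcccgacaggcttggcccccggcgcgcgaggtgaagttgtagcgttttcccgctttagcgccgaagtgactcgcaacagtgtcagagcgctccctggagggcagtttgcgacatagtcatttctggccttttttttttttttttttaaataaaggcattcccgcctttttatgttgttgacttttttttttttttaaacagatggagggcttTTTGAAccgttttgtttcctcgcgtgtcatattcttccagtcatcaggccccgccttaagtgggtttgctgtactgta
Lbr, chr1:181842352-181842651, minus strand: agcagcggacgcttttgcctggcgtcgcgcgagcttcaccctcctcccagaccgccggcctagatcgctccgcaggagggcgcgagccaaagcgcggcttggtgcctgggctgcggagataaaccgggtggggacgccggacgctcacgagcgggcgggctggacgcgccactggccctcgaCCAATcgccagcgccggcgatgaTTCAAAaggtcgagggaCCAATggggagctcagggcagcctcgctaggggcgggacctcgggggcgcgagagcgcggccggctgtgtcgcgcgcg
Lmna, chr3:88503303-88503602, minus strand: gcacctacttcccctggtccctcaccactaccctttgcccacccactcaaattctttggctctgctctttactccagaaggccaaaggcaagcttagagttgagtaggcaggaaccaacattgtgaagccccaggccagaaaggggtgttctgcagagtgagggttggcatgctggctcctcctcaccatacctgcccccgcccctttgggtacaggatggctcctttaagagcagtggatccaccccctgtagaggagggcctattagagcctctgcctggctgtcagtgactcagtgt
Lmna, chr3:88493263-88493562, minus strand: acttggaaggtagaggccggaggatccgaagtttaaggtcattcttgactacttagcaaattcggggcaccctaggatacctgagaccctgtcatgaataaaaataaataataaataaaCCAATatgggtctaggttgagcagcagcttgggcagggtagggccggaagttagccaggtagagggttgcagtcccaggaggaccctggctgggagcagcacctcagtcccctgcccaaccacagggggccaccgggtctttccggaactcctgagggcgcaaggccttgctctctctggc
Cbx3, chr6:51470366-51470665, plus strand: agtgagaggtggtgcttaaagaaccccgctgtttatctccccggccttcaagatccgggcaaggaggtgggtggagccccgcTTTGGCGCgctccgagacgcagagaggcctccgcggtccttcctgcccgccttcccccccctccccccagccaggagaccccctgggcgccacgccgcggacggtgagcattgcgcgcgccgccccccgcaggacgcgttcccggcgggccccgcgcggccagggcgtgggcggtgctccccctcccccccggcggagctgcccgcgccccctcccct

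The Lbr window held 2 CCAAT boxes with TTTGAA between them on the opposite strand. Of the Tmpo windows, the upstream one held 2 CCAAT boxes and the other held TTTGAA. A window with 2 or more CCAAT matches made up 11.7% of all 32851 windows, CCAAT was found at least once in 37.4% and TTTGAA in 17.9%. Of the Lmna windows, the upstream one held no match and the other held 1 CCAAT. TTTGGCGC, found in 0.514% of windows, was present in the Cbx3 window shown and in no other of the 15, and TTTCGCGC, found in 0.323%, was in none. Of the windows not shown, the other Cbx3 window and both of Lmnb2 held no match. The Lemd3 and Emd windows and 1 of 2 windows each of Banf1 and Cbx5 held a single CCAAT. The matches describe letters in these windows and are not sites shown to be bound.

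**Figure D2:**
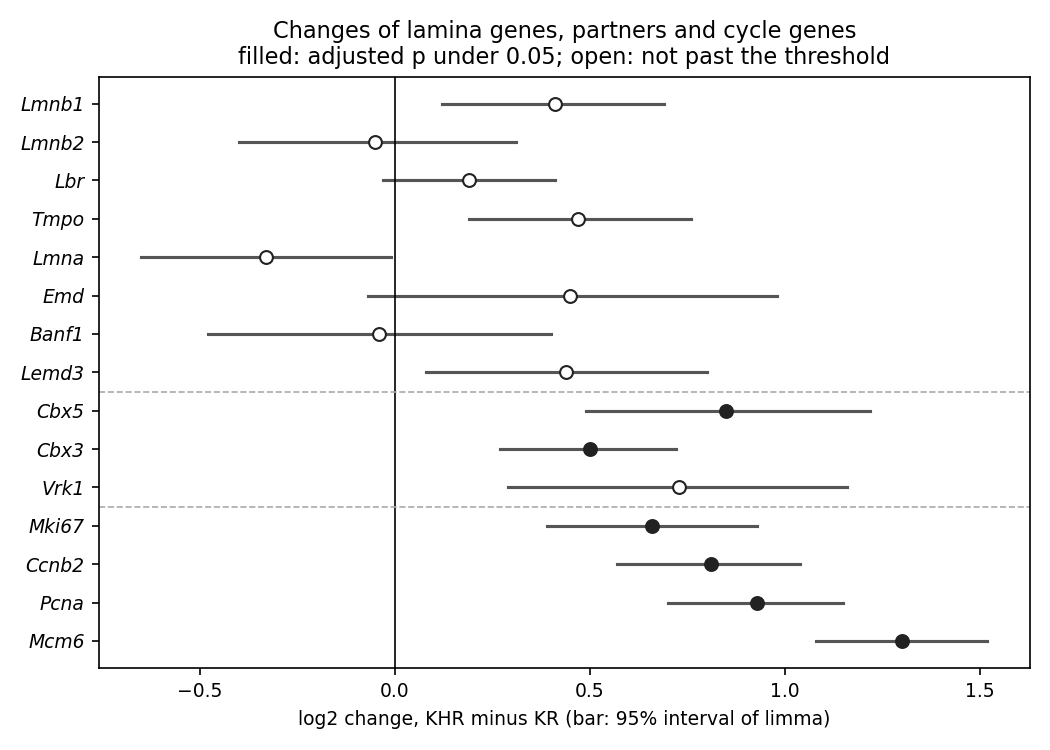
Log2 change between KHR and KR tumours (horizontal axis) for the 8 lamina genes, for 3 genes of lamina partner lists and for 4 cell cycle genes; bars are 95% intervals of limma, n = 6 arrays a group, and filled points have an adjusted p under 0.05 over all genes. The 8 lamina genes are open points between -0.33 and 0.47, while the 4 cycle genes are filled points from 0.66 to 1.30. These 4 are the cycle reference genes that passed. E2f1 (0.47, adjusted p = 0.0523 in limma) and Rb1 (0.19, adjusted p = 0.489), which did not pass, are not drawn.

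Lmna encodes the A-type lamins, and its estimate was lower in KHR tumours. In the KR tumours Lmna read 10.02, 9.75, 9.90, 9.46, 9.76 and 9.47, and in the KHR tumours 9.83, 9.0, 9.58, 9.26, 9.14 and 9.58. KHR 2, KHR 4 and KHR 5 lay below every KR tumour, and KHR 1 lay above 4 of them. The difference was -0.33 ± 0.15 (SE, n = 6 each; 95% interval -0.65 to -0.01; adjusted p = 0.304 in limma), and adjusted p-values lay between 0.125 and 0.472 on leaving out each array. The exact permutation test gave an unadjusted p of 0.0693. With the mean of 12 skeletal muscle genes as a covariate the estimate was -0.20 (adjusted p = 0.534).

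The probesets of Lmna did not move alike. Of 19 probesets 15 were lower in KHR tumours, and 13 of the 14 above the median level of all probesets were. Their changes spanned -0.96 to 0.26. A single probeset passed when all 233753 named probesets were tested, which 1.02% of them did. For this probeset the KR tumours read 11.12, 10.85, 11.12, 11.26, 10.68 and 10.83, and the KHR tumours 10.30, 10.35, 10.26, 10.26, 9.75 and 10.27. All KHR tumours lay below all KR tumours for it, KHR 1 included, with a change of -0.78 ± 0.15 (SE, n = 6 each; adjusted p = 0.0269 in limma). It was singled out after its values were seen. No probeset of the other lamina genes passed, so the share of lamina probesets that passed was not above the 1.02% of all. The share of all named probesets without overlap is not given here. The call of this probeset is therefore not read as a result for Lmna. Which exon each probeset reads is not given in the sources used here, so these values are not assigned to lamin A or lamin C.

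**Figure D3:**
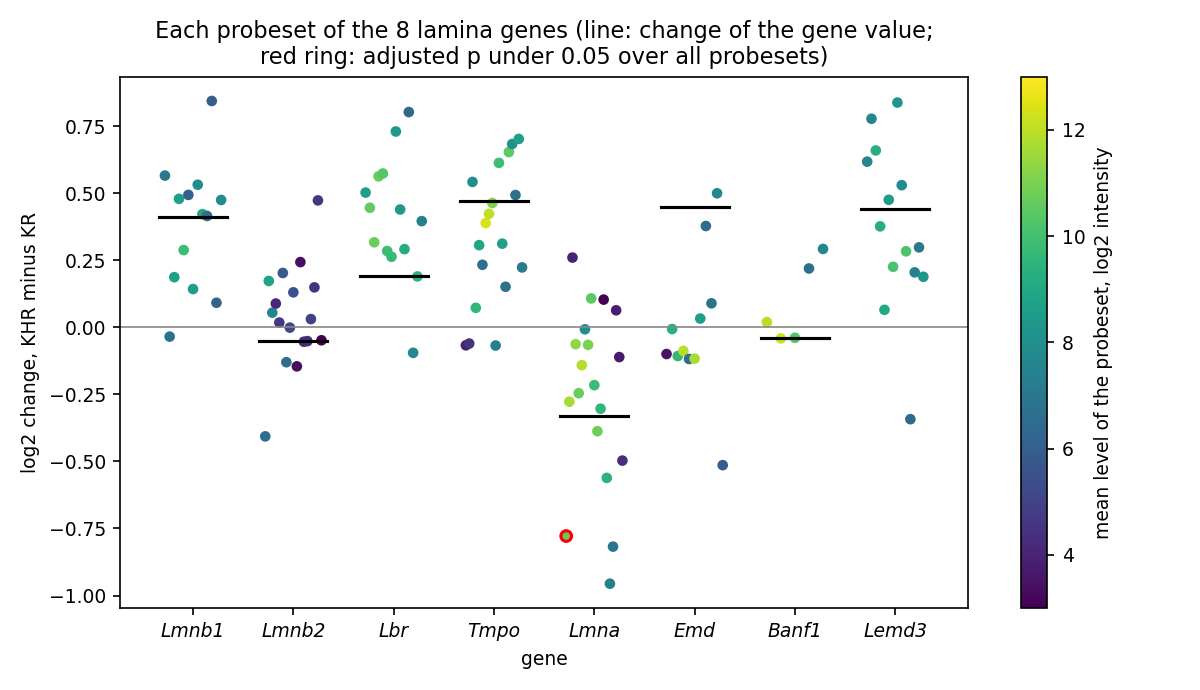
Log2 change between KHR and KR tumours (vertical axis) of every probeset of the 8 lamina genes, coloured by its mean log2 intensity; black lines mark the change of the gene value and the red ring marks the 1 probeset past an adjusted p of 0.05. Lmnb1, Lbr, Tmpo and Lemd3 have most points above 0, Lmna has 15 of 19 below 0, and the line of Emd lies above most of its points.

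Emd encodes emerin, a LEM-domain protein of the inner membrane, and lies on the X chromosome. Emd values in KR tumours were 7.64, 6.68, 8.04, 7.34, 7.24 and 7.37, and in KHR tumours 8.27, 7.10, 8.53, 7.58, 7.73 and 7.80. The gene value differed by 0.45 ± 0.24 (SE, n = 6 each; 95% interval -0.07 to 0.98; adjusted p = 0.409 in limma). This number rests on 1 of the 11 probesets, which held the median on 10 of the 12 arrays and differed by 0.50 ± 0.27. The 5 brightest probesets of Emd had changes between -0.12 and 0.03, and 4 of them were lower in KHR tumours. The mean over probesets gave -0.0049 (adjusted p = 0.990) and median polish gave 0.0039 (adjusted p = 0.993). Xist, which is transcribed from the inactive X of females, was high on 2 KR arrays (12.1 and 12.5) and on 4 KHR arrays (11.0 to 12.4), so sex was uneven between the groups. With the Xist level as a covariate the Emd estimate was 0.43 (adjusted p = 0.524).

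Banf1 encodes BAF, the small protein that cross-links DNA and recruits LEM proteins at the end of mitosis. Its KR values were 10.88, 9.85, 10.17, 10.09, 10.35 and 10.44, and its KHR values were 10.64, 10.31, 10.54, 10.44, 9.42 and 10.20. Only KHR 5 lay outside the KR range, below it. The difference was -0.04 ± 0.21 (SE, n = 6 each; 95% interval -0.48 to 0.40; adjusted p = 0.961 in limma), and it was 0.13 without KHR 5 (adjusted p = 0.793).

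Lemd3 encodes MAN1, a LEM-domain protein that also binds SMAD proteins and damps TGF-beta and BMP signals. Its KR values were 7.72, 8.01, 8.33, 7.95, 8.30 and 7.99, and its KHR values were 7.88, 8.32, 8.49, 8.60, 9.04 and 8.60. Of the KHR tumours 4 lay above every KR tumour, and KHR 1 lay below 5 of them. The difference was 0.44 ± 0.17 (SE, n = 6 each; 95% interval 0.08 to 0.80; adjusted p = 0.200 in limma). It passed without KHR 1 (0.56, adjusted p = 0.0435), and leaving out others gave up to 0.338. Of its 14 probesets 13 were higher in KHR tumours. KHR 5, the highest for Lemd3 and the lowest for Banf1, also had the highest mean of the 12 muscle genes, at 7.78. That mean ranged from 5.38 to 6.66 in KR and from 5.36 to 7.78 in KHR tumours. No muscle gene passed, though 10 of the 12 had estimates above 0, with a median change of 0.46. With the muscle mean as a covariate the Lemd3 estimate was 0.28 (adjusted p = 0.340), the Lmnb1 estimate 0.40 and the Tmpo estimate 0.45 (adjusted p = 0.194 and 0.137).

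Within an array, the balance of Lmnb1 to Lmna is a single log2 difference. It was -2.03, -2.16, -2.56, -2.18, -2.22 and -1.80 in the KR tumours and -2.24, -1.06, -1.59, -1.32, -1.02 and -1.32 in the KHR tumours. KHR 2 to KHR 6 all lay above every KR tumour, and KHR 1 lay below 5 of them. The group means were -2.16 ± 0.25 for KR and -1.43 ± 0.45 for KHR (SD, n = 6 each), a shift of 0.73 that is given as a description with no test, since the pair was chosen from the members. The absolute numbers depend on the probes. With the mean over probesets the shift was 0.63, and with median polish 0.58.

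The wider grouping of the genes parted less. The mean of Lmnb1, Lmnb2, Lbr and Tmpo was 7.47 ± 0.12 for KR and 7.73 ± 0.16 for KHR (SD, n = 6 each), and 5 KHR tumours lay above every KR tumour. The mean of Lmna, Emd, Banf1 and Lemd3 was 8.86 ± 0.21 for KR and 9.0 ± 0.22 for KHR, and 2 KHR tumours lay above every KR tumour. The difference of the 2 means shifted by 0.12, from -1.39 ± 0.15 to -1.26 ± 0.23, with KHR 1 at -1.66 as the lowest array and 3 KHR tumours above the KR range. Lemd3 and Emd, whose estimates were above 0, stood on the side of Lmna, and Lmnb2 stood on the other side with an estimate near 0. The Emd value rests on 1 probeset, and the shift of 0.12 depended on the summary over probesets. It was 0.24 with the mean over probesets, 0.22 with median polish and 0.19 with brighter probesets alone.

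**Figure D4:**
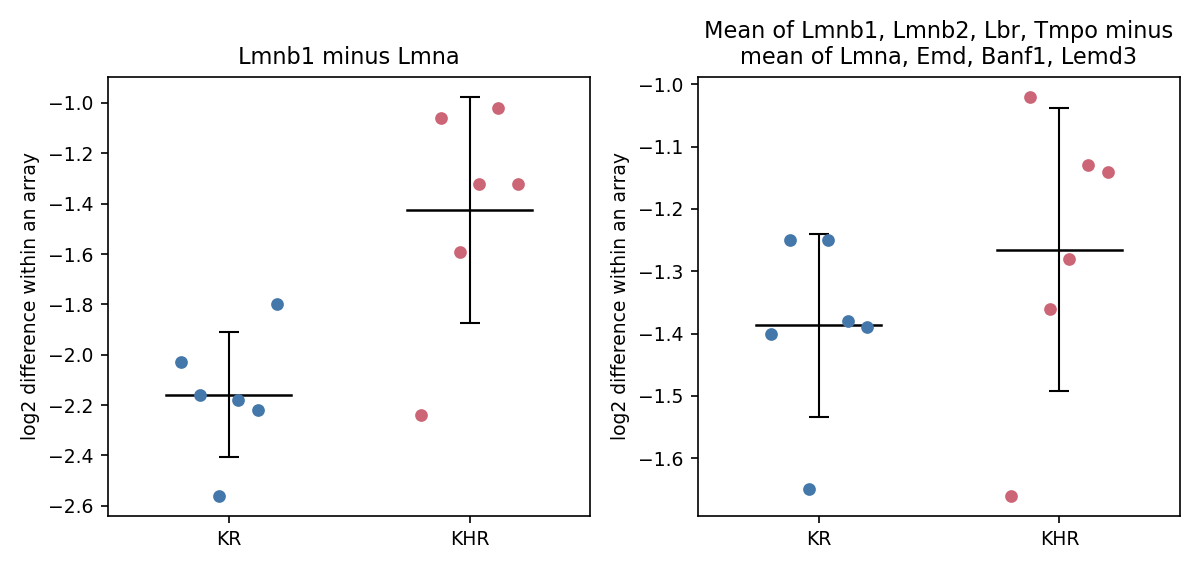
Log2 difference within each array (vertical axes) between Lmnb1 and Lmna on the left and between the mean of Lmnb1, Lmnb2, Lbr and Tmpo and the mean of Lmna, Emd, Banf1 and Lemd3 on the right; points are arrays, long lines are group means and bars are 1 SD on each side, n = 6 a group. For Lmnb1 minus Lmna, 5 KHR tumours lie above the KR range and KHR 1 lies at -2.24, while on the right the groups overlap widely.

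Of 6 cell cycle reference genes, listed with earlier results of these data known, 4 passed as higher in KHR tumours, as 2.71% of all genes did. For these 4 KHR 1 lay above every KR tumour. Mki67, the proliferation marker, rose by 0.66 ± 0.13 (SE, n = 6 each; adjusted p = 0.00998 in limma), with values of 10.19 in KHR 1 and up to 10.14 in KR tumours. The cyclin Ccnb2 rose by 0.81 ± 0.11, the sliding clamp Pcna by 0.93 ± 0.10 and the helicase subunit Mcm6 by 1.30 ± 0.10. For each of these 3, and for Mki67, all KHR arrays lay above all KR arrays, while 2.67% of all genes had groups that did not overlap. The other 2 did not pass. E2f1, an activator of S-phase genes, differed by 0.47 ± 0.12 (adjusted p = 0.0523 in limma), with KHR 2 among the KR tumours. Rb1, which encodes the Rb protein, differed by 0.19 ± 0.12 (adjusted p = 0.489 in limma), with KHR 1, KHR 4 and KHR 6 among the KR tumours. The 95% interval of Mcm6, from 1.08 to 1.52, lay above those of all 8 lamina genes. Pcna, from 0.70 to 1.15, lay just above the Lmnb1 interval of 0.12 to 0.69 but overlapped those of Tmpo, Lemd3 and Emd. Ccnb2, from 0.57 to 1.04, and Mki67, from 0.39 to 0.93, overlapped the Lmnb1 interval. No test of the difference between a lamina gene and a cycle gene was made. How far the lamina estimates follow the cycle genes was not tested.

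The genes most like Lmnb1 over the 12 arrays were ranked by Pearson correlation among 11550 other genes above the median level. The first 5 were the AlkB family gene Alkbh7 (r = 0.91), E2f2, a relative of E2f1 (0.90), Basp1 (0.89), Tfdp2, a partner of E2F proteins (0.89), and Cep55, a protein of the last step of cell division (0.87). With the group means taken out, their correlations with Lmnb1 were between 0.74 and 0.82. Of these 5, Alkbh7, E2f2, Tfdp2 and Cep55 passed, as 3.74% of all genes did. Their changes were 0.59 ± 0.14, 0.64 ± 0.16, 0.66 ± 0.15 and 0.71 ± 0.16 (SE, adjusted p = 0.0385, 0.0482, 0.0225 and 0.0224 in limma). The ranking ran over both groups, and Lmnb1 itself differed by 0.41. It therefore favoured genes that differ between the groups, and these calls are not read as a result. For Lmna the 5 were Ext2, a heparan sulfate polymerase (0.92), Crip2 (0.91), Jup, the junction protein plakoglobin (0.91), Khnyn (0.90) and Mgrn1, a ubiquitin ligase (0.90), with correlations between 0.86 and 0.90 within the groups. None of these 5 passed, and their changes lay between -0.54 and -0.12. Each gene is the top of a ranking over the same 12 arrays, so the coefficients are descriptions and carry no test.

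Of 65 measured partner genes of the lamina, in 7 lists, 2 passed in limma, a share of 3.08% beside the 3.74% of all genes. When genes above the median level were tested alone, 4 of 62 partner genes passed, beside 1007 of 11551 genes. The 2 that passed in the test of all genes were among the 12 lamina-bound chromatin partners, where none passed as lower. Of these 12, 8 had estimates above 0, and the median change was 0.13. The 2 that passed both rose, and they encode HP1 proteins, readers of the heterochromatin mark that are known to bind Lbr. Cbx5, which encodes HP1 alpha, had KR values of 9.21, 9.39, 10.12, 9.77, 9.87 and 9.64 and KHR values of 10.17, 10.19, 10.78, 10.76, 10.38 and 10.83. All KHR tumours lay above all KR tumours, and the change was 0.85 ± 0.17 (SE, n = 6 each; adjusted p = 0.0126 in limma). Cbx3, which encodes HP1 gamma, rose from 8.60 ± 0.22 to 9.10 ± 0.09 (SD, n = 6 each), by 0.50 ± 0.10 (SE; adjusted p = 0.0168 in limma), with no overlap. Cbx3 has processed pseudogenes that share its sequence, so its value is uncertain, and with brighter probesets alone its change was 0.40 (adjusted p = 0.0769). With the mean over probesets it was 0.27 (adjusted p = 0.0420).

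Among 6 BAF kinase and phosphatase genes none passed in limma (3 at an unadjusted p under 0.05, with a list median of -0.05). Vrk1, the kinase that releases BAF from DNA in mitosis, differed by 0.73 ± 0.20 (SE, n = 6 each; 95% interval 0.29 to 1.16; adjusted p = 0.0678 in limma). Its KR values were 7.80, 7.46, 8.40, 8.61, 8.65 and 8.53, and its KHR values were 8.57, 9.04, 9.34, 8.89, 9.03 and 8.95, so KR 1 and KR 2 stood low and KHR 1 lay among the KR tumours. It passed with the mean over probesets (0.67, adjusted p = 0.0215) and with median polish (0.71, adjusted p = 0.0193), among genes above the median level (adjusted p = 0.0398), with eBayes trend and robust fitting (0.0448) and without KHR 1 (0.81, adjusted p = 0.0443). With the Xist or the muscle covariate the adjusted p was 0.149 or 0.145. Ppp2ca, a catalytic subunit of protein phosphatase PP2A, differed by -0.36 ± 0.12 (adjusted p = 0.135 in limma), a sign that turned with the mean over probesets (0.02).

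The other 5 partner lists had no gene past the threshold in limma. Of 9 measured LINC complex and torsin genes, which couple the nucleus to the cytoskeleton, 3 had estimates above 0 (median change -0.06), and 1 had an unadjusted p under 0.05. That gene, the torsin Tor1b, differed by -0.24 ± 0.10 (SE, n = 6 each; adjusted p = 0.252), and Sun2, of the inner membrane end of the LINC bridge, by -0.28 ± 0.16 (adjusted p = 0.436). Of 15 other LEM and inner membrane genes, 11 had estimates above 0 (median 0.16), with Tmem97 at 0.33 ± 0.11 and Tmem201, which encodes the membrane protein SAMP1, at 0.38 ± 0.14 (adjusted p = 0.141 and 0.171 in limma). For the 5 prelamin processing genes (median -0.04), Zmpste24, the protease that matures prelamin A, differed by 0.34 ± 0.21, and the farnesyltransferase subunit Fnta by -0.10 ± 0.14. For the 8 envelope sealing genes (median 0.05), the ESCRT genes Chmp7 and Chmp4b differed by 0.34 ± 0.20 and -0.25 ± 0.17. For the 10 measured sterol synthesis genes that work beside Lbr (median -0.08), Lss and Cyp51 differed by -0.21 ± 0.11 and 0.23 ± 0.12. The adjusted p-values of these last 6 genes lay between 0.376 and 0.799 in limma.

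The tumours carried the markers of squamous epithelium. The mean of 10 keratinocyte genes was 11.1 in KR and 11.3 in KHR tumours, all of them above the all-gene median, and none passed. Among stromal lists, 1 of 10 fibroblast genes passed, while 5 of the 10 had estimates above 0 and the list median was 0.07. The gene that passed, Col1a2, differed by -0.80 ± 0.18 (SE, n = 6 each, adjusted p = 0.0220 in limma). Its call was lost without KHR 4 or KHR 6, at up to 0.0578, and with the Xist or the muscle covariate. Median polish and the mean over probesets both gave -0.54, with adjusted p-values of 0.0507, which missed, and 0.0399. The fibroblast mean ranged from 8.06 to 9.23 in KR and from 8.23 to 9.15 in KHR tumours. No gene passed in limma among 8 of endothelium or among 9 measured leukocyte genes (0 and 1 at an unadjusted p under 0.05). The leukocyte mean ranged from 5.82 to 6.51 in KR and from 6.24 to 6.62 in KHR tumours. In such bulk tissue, more or fewer cells of a type and more or less RNA per cell cannot be told apart, and the part of these cells in the lamina values was not tested.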

How the data were processed

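Per the submitters' processing notes, the deposited log2 intensities, 1 per probeset and array (269751 probesets, Affymetrix Mouse Gene 2.0 ST read at exon level), came from Partek; the sources used here do not state the background correction, normalization or build, and log2 was read from the range. Array medians lay between 5.62 and 5.75, and no 2 arrays correlated above 0.97. Of the probesets, 233753 had 1 symbol in the platform annotation, 5106 several and 30892 none; older symbols were updated through RefSeq (GRCm38.p6). Gene values are medians over probesets, with no filter on dim genes. Genes were tested with limma 3.58.1 in R 4.3.3 (lmFit, eBayes; 6 against 6, no covariate, two-sided), checked on simulated data; other tables used Python 3.11.15 and pandas 2.3.3.

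The 8 genes and the lists were chosen with earlier results of these data known. Named were the 8 members, cycle reference genes, the called genes of each list or else the 2 with the smallest p, and the 5 genes most like Lmnb1 and Lmna; some of these are not written out. Listed genes without a value are not analysed here. Same-numbered KR and KHR tumours had correlated deviations of -0.0029 to 0.234, not above 0.1 for every pair, so the numbers were not used to pair them. Alternatives were other probeset summaries, scalings, filters, covariates, weights and leaving out each array; the brighter probesets alone, and other summaries for the grouped difference, were added after seeing the data.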

Additional observations from a re-analysis of the deposited data

Results flagged for a closer look

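Among 28 named genes, 56 groups of 6 arrays were checked for 1 array far from the others by Dixon's test at the 95% level. Chance gives about 1 in 20, and 2 groups stood out. Banf1 was 9.42 in KHR 5 against 10.20 in the nearest KHR tumour, and Lmnb2 was 5.39 in KHR 3 against 4.87.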

How the results depend on the processing

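Tmpo, Lmnb1, Lbr, Lemd3 and Lmna kept their direction under every alternative run. Of the 8 lamina genes, 2 passed with the mean over probesets (Lbr and Lmnb1). In the test per probeset, 1 of the 19 probesets of Lmna passed. Array weights called 1 gene (Tmpo), the replicate block called 1 (Emd, adjusted p = 0.0252), and leaving out each array gave 0 to 3. Vrk1 also passed with the block (adjusted p = 0.0480). Under the block 925 genes passed, and the SE was 0.09 against 0.24 for Emd and 0.15 against 0.13 for Lmnb1. Of the 12 arrays, 3 correlated best with the array of the same number in the other group. This check cannot show whether same-numbered tumours share an animal or a batch, which was not tested. Over all genes, 1445 passed with the mean over probesets and 555 with the Xist covariate, against 863, and leaving out each array gave 523 (KHR 4) and 531 (KR 2) to 1085. Partner genes called were 2, and 5, 4, 4 and 4 with the mean over probesets, median polish, genes above the median level and the replicate block, and 2 to 6 on leaving out each array. Signs turned for 3 of the lamina genes and for Ppp2ca. Lmnb2 was 0.04, 0.05, 0.02 and 0.03 with the mean over probesets, median polish, the muscle covariate and brighter probesets, and -0.15 to 0.05 on leaving out each array. Banf1 was 0.09, 0.08, 0.01, 0.02 and 0.16 with the mean, median polish, array weights, the Xist covariate and the muscle covariate, and -0.13 to 0.13 on leaving out each array. Emd was -0.0049 with the mean over probesets, and Ppp2ca 0.02, 0.01 and 0.09 with the mean, median polish and brighter probesets. Apart from the values by probeset given above, the cause was not tested. Without a detection call, dim values such as those of Lmnb2 limit what a change can show.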
